A study of Sus scrofa with 4 samples.

Results

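The RAS and MAP kinase cascade was described through 51 genes in porcine induced pluripotent stem cells, chosen by gene symbol from the 16026 genes of the deposited table. All 51 symbols were found, each on a single row. They were sorted by role into 14 RAS proteins, adaptors and GTPase activators, 12 kinases of the MAP3K tier (pseudokinase scaffolds included), 7 MAP2K, 12 MAPK and 6 effector kinases. The list was drawn up by name and does not hold every gene of the cascade.

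The cells were reprogrammed pig cells of the Bamei black breed, labelled with a development stage of 26.5 days in every library. The controls carried a negative control hairpin RNA (shNC, 2 libraries), and the other group carried a hairpin against the RNA-binding protein LIN28A (shLin28a, 2 libraries). Whether both knockdown libraries carry 1 hairpin, and whether libraries of a group came from different cultures, is not stated in the labels. The p-values therefore measure a spread that may be technical. The title of the series links LIN28A to DUSP phosphatases, MAPK signalling and pluripotency, and the libraries measured messenger RNA, not kinase activity.

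In this cascade, receptor tyrosine kinases recruit the adaptor GRB2 and the exchange factor SOS, which load RAS with GTP. RAS-GTP activates RAF kinases, which phosphorylate MEK (MAP2K1 and MAP2K2), which phosphorylates ERK. Parallel tiers of MAP3K and MAP2K activate the stress kinases JNK and p38, and MAP2K5 activates ERK5. In mouse embryonic stem cells, ERK signalling driven by FGF is known for moving cells out of the naive pluripotent state.

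Libraries differed in depth, from 2400985 summed counts in knockdown 2 to 11847343 in control 1, and the cascade genes received between 10612 and 38786 of these. LIN28A was at 32.6 and 17.2 FPKM (fragments per transcript kilobase, adjusted for library size) in control 1 and 2, against 3.14 and 2.58 in knockdown 1 and 2. Both knockdown libraries lay below both controls, with a log2 fold change of −2.92 ± 0.49 (SE) and an edgeR adjusted p of 0.259 (0.00855 by DESeq2). Of the markers that define pluripotent cells, POU5F1 was at 16.6 to 43.4 FPKM and SOX2 at 53.5 to 109, while neither of the 2 NANOG entries exceeded 0.70 in any library. Knockdown 2 stood apart in cell type markers. Its summed fibroblast list was at 2674 FPKM over 21 genes against 1159 to 1504 in the other libraries, and its pluripotent list at 98.6 over 10 entries against 196 to 240. VIM alone gave 1503 FPKM of that fibroblast sum, and 734.8 to 958.5 in the other libraries. Knockdown 2 was the highest library for 15 of the 21 fibroblast genes and the lowest for 1, S100A4. THY1 was at 9.79 and 7.89 FPKM under shNC, against 3.38 and 5.80 under shLin28a. The fibroblast collagens COL1A1, COL1A2 and COL3A1 were above 0 in every library, and COL1A1 ran from 17.6 FPKM in control 1 through 52.8 in control 2 and 56.5 in knockdown 1 to 206 in knockdown 2. Results that rest on knockdown 2 are therefore given with and without it, and the part of these markers in them was not tested. In bulk RNA, fewer cells of a type and less RNA per cell cannot be told apart.

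No cascade gene passed the main test between knockdown and control, which took no covariates. Of 51 genes, 48 passed the filter on low counts, and edgeR's quasi-likelihood test with Benjamini-Hochberg adjustment over all genes called 0 of them, against 0% of all 11967 tested genes. At an unadjusted p under 0.05 it picked 1 of 48, MAPK4, against 7.71% of all tested genes. DESeq2 also called 0 of 48, with 3 at an unadjusted p under 0.05 (MAPK3, MAP2K1 and RASA1), where 1.16% of all genes were called and 8.26% passed unadjusted. By limma on log2(FPKM + 1), 0 of 45 were called and 1 passed unadjusted, against 0.018% and 5.51% of all genes. A further edgeR fit took the library number as a block (the replicate block), a pairing the labels do not state. It called 5 of 48 higher (GRB2, MAP2K1, MAP2K7, MAPK3 and RASA1), against 8.62% of all tested genes. Without knockdown 1, edgeR called 9 of 48 higher, against 9.11% of all genes, on knockdown 2 as the single library of its group. The 48 log2 fold changes had a median of 0.23, beside 0.01 for all tested genes, and 35 were positive and 13 negative, where 51.2% of all genes were positive. With total counts in place of TMM scaling the split was 24 against 24 and the median −0.01, but that scaling moved the median of all genes to −0.18, and 35 of 48 lay above the median of all genes under either scaling. Without knockdown 2 the median was −0.04, and 20 of 48 were positive. All tested genes then had a median of −0.02, and 47% of them were positive.

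In FPKM, both knockdown libraries lay above both controls for 5 of the 48 tested genes (GRB2, BRAF, MAP3K2, MAP2K7 and RPS6KA5) and below them for another 5 (SOS1, PTPN11, MAP3K11, MAP2K3 and MAPK4), against 10.7% and 28.5% of all tested genes. Either way, 20.8% of cascade genes and 39.2% of all genes had groups that did not overlap. In counts scaled by TMM factors, which place knockdown 2 higher than FPKM does, 7 lay above (HRAS, MAP3K8 and MAPK11 in addition, BRAF no longer) and 4 below (SOS1 no longer), against 18.8% and 22.9%. Either way these were 22.9% of cascade genes and 41.7% of all genes.

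**Figure D1:**
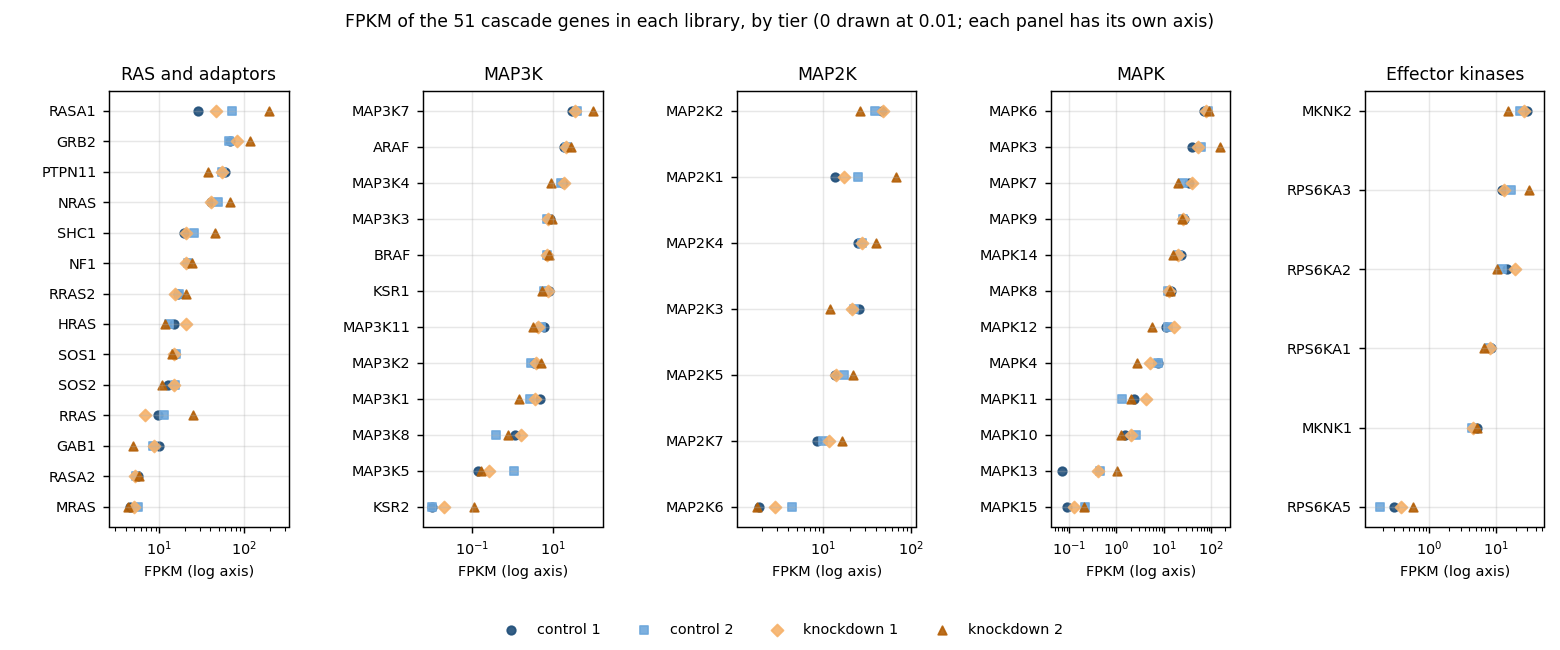
FPKM of each of the 51 genes (log axis, a panel and an axis for each tier) in the 4 libraries, ordered by mean level. RASA1, MAP2K1, MAPK3, MAP3K7 and RPS6KA3 have knockdown 2 far to the right and knockdown 1 among the controls, while MAPK4 has both knockdown libraries to the left.

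RAS proteins are small GTPases that switch the cascade on, and most of them differed more between the libraries of a group than between groups. NRAS was the most abundant of the 5 RAS genes listed, at 40.8 and 49.7 FPKM in the shNC libraries, against 40.5 and 67.6 under shLin28a. Its lowest and highest values were both knockdown libraries. HRAS was at 14.9 and 12.8 FPKM under shNC and at 20.8 in knockdown 1 and 11.6 in knockdown 2, again the 2 extremes, although on the TMM scale both lay above the controls. RRAS, a relative of RAS that acts on integrin adhesion, was at 9.55 and 11.3 against 6.81 and 25.1 FPKM. Here too the knockdown libraries lay on opposite sides of the controls. RRAS2 ranged from 15.3 to 20.3 FPKM over the libraries, and MRAS, which directs a phosphatase complex to RAF, from 4.25 to 5.51. The share of NRAS in the summed FPKM of HRAS and NRAS was 73.3% and 79.5% under shNC, against 66.0% and 85.3% under shLin28a.

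GRB2, the adaptor that links activated receptors to SOS, was at 68.5 and 66.5 FPKM under shNC, against 81.4 and 116 under shLin28a. The controls were close to each other and both knockdown libraries were higher, with means of 67.5 ± 1.44 and 98.8 ± 24.6 FPKM (SD, n = 2). Its log2 fold change was 0.82 ± 0.35 (SE), with an edgeR adjusted p of 0.606. The value was 0.26 without knockdown 2 and 1.23 without knockdown 1, and the gene lies on chromosome 12 at 5940723 to 6009095 of Sscrofa11.1.

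SHC1, another receptor adaptor, was at 19.5 and 25.7 against 20.7 and 45.7 FPKM, so knockdown 1 lay between the controls. The exchange factors SOS1 and SOS2 stayed within 14.1 to 15.6 and 10.6 to 15.1 FPKM over all libraries. PTPN11, the phosphatase SHP2 that promotes RAS activation, was at 59.1 and 54.6 FPKM under shNC, against 54.5 and 37.2 under shLin28a. Knockdown 1 lay just under control 2, and only knockdown 2 stood clear of the rest; the log2 fold change was −0.11 ± 0.23 (SE). GAB1, a docking protein for PTPN11, ranged from 4.83 FPKM in knockdown 2 to 9.86 in control 1.

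The GTPase activators return RAS to its inactive state. NF1, neurofibromin, was at 20.6 to 24.5 FPKM and RASA2 at 5.17 to 5.72 over the libraries. RASA1, p120 RasGAP, was at 28.7 and 71.6 FPKM under shNC, against 46.6 and 197 under shLin28a. Its values spanned 6.84-fold, control 2 exceeded knockdown 1, and only knockdown 2 stood above all. Each knockdown library exceeded the control of the same number, a pairing that the labels do not state. The log2 fold change of RASA1 was 1.52 ± 0.84 (SE) with an edgeR adjusted p of 0.606, and it was −0.09 without knockdown 2. With the replicate block it was 1.23, with an edgeR adjusted p of 0.0028. RASA1 took 52.0% and 72.8% of the summed FPKM of these 3 activators under shNC, against 64.4% and 86.7% under shLin28a. The gene lies on chromosome 2 at 94879615 to 94992725. RSEM gave RASA1 expected counts that are not whole in 3 of 4 libraries, as it does for reads shared between loci. Its span also overlaps that of CCNH, and strandedness is not given in the sources used here, so its level is uncertain. Over the whole tier, 12 of 14 log2 fold changes were positive with a median of 0.29, and the median was −0.07 without knockdown 2.

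RAF kinases, which RAS activates directly, were represented by ARAF and BRAF. ARAF was at 18.7 and 22.1 FPKM under shNC, against 20.9 and 27.0 under shLin28a, with a log2 fold change of 0.48 ± 0.32 (SE) and an edgeR adjusted p of 0.631. Knockdown 1 lay between the controls, and the value was 0.02 without knockdown 2. BRAF varied 1.09-fold over the libraries, at 7.18 and 7.15 against 7.20 and 7.77 FPKM. ARAF made up 72.2% to 77.6% of the summed FPKM of ARAF and BRAF in every library. KSR1, a scaffold that holds RAF, MEK and ERK together, was at 5.26 to 7.83 FPKM. Its relative KSR2 was at a count of 0 in both controls and a count of 1 in each knockdown library, too low for the test.

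Among the MAP3K of the stress arms, MAP3K7 (TAK1, a kinase of the TGF-beta and interleukin pathways) had the highest level, at 28.8 and 39.3 FPKM under shNC, against 34.2 and 97.8 under shLin28a. Knockdown 1 lay between the controls. In counts scaled to library totals alone (CPM), which carry no length, MAP3K7 was at 116 and 129 against 115 and 220. The excess in knockdown 2 was thus smaller in counts than in FPKM, because the transcript length that the authors' FPKM imply for MAP3K7 differed 1.79-fold between libraries. Its log2 fold change from counts was 0.75 ± 0.47 (SE) with an edgeR adjusted p of 0.619, and −0.10 without knockdown 2. MAP3K4, a kinase upstream of p38 and JNK, was lowest in knockdown 2 (8.97 FPKM) and at 15.2 to 18.1 in the other libraries. MAP3K1, upstream of JNK, was at 4.70 and 2.70 against 3.58 and 1.45 FPKM, and MAP3K11, a mixed lineage kinase, at 5.84 and 4.96 against 4.30 and 3.15. For MAP3K11 both knockdown libraries lay below both controls, with a log2 fold change of −0.33 ± 0.22 (SE).

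MAP3K5 (ASK1, an oxidative stress kinase) had 9 and 41 counts under shNC, against 12 and 2 under shLin28a, and control 2 alone was high. MAP3K8, which activates MEK after inflammatory signals, had 38 and 7 counts against 34 and 6. On the TMM scale both knockdown libraries of MAP3K8 lay above both controls, on counts of under 10 in each second library. MAP3K2 and MAP3K3, which feed ERK5 through MAP2K5, were at 2.81 to 5.04 and 6.93 to 9.50 FPKM. MAP3K2 was above both controls in both knockdown libraries in FPKM, and on the TMM scale, but in CPM it was at 35.1 and 29.6 against 38.5 and 31.7, where the groups overlap. The implied length of MAP3K2 differed 1.68-fold between libraries. Of 11 tested genes in the tier, 7 log2 fold changes were positive and the median was 0.18, against −0.02 with total counts and 0.00 without knockdown 2. The median of all tested genes was −0.18 with total counts and −0.02 without knockdown 2.

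The MEK kinases differed in opposite directions between libraries of a group. MAP2K1 (MEK1, chromosome 1, 164381892 to 164469313) was at 13.7 and 24.8 FPKM in the shNC libraries and at 17.1 and 67.3 under shLin28a. MAP2K2 (MEK2, chromosome 2, 74626739 to 74651352) was at 46.0 and 38.9 against 47.7 and 25.9. In both groups the library with more MAP2K1 had less MAP2K2. MAP2K1 was therefore 23.0% and 38.9% of the MEK transcripts under shNC, against 26.4% and 72.2% under shLin28a, a ratio that no scaling between libraries can move. MAP2K1 outweighed MAP2K2 in knockdown 2 alone. In counts, MAP2K1 was at 38.8 CPM (exact Poisson 95% interval 34.6 to 43.4) in knockdown 1 and 153 (138 to 170) in knockdown 2, intervals that cover counting error only. The log2 fold change of MAP2K1 between groups was 1.47 ± 0.80 (SE) with an edgeR adjusted p of 0.606, and −0.17 without knockdown 2. With the replicate block it was 1.11, with an edgeR adjusted p of 0.0010. Each knockdown library exceeded the control of the same number in MAP2K1. The log2 fold change of MAP2K2 without the block was −0.02 ± 0.25 (SE), with an edgeR adjusted p of 0.982. The span of MAP2K1 overlaps that of SNAPC5, and 3 of its 4 expected counts are not whole.

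Both kinases of JNK were higher in knockdown 2, and MAP2K7 in both knockdown libraries. MAP2K7 (MKK7, chromosome 2, 71299010 to 71308432), which acts on JNK alone, was at 8.40 and 9.98 FPKM under shNC, against 11.7 and 16.1 under shLin28a. The groups did not overlap, with means of 9.19 ± 1.12 and 13.9 ± 3.14 FPKM (SD, n = 2). Its log2 fold change was 0.81 ± 0.33 (SE) with an edgeR adjusted p of 0.606, and it remained positive at 0.32 without knockdown 2 and was larger without knockdown 1. MAP2K4 (MKK4), which acts on JNK and p38, was at 24.5 and 27.6 against 27.2 and 39.1 FPKM, with knockdown 1 between the controls. MAP2K4 was 70.0% to 74.4% of the summed FPKM of these 2 kinases in every library.

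MAP2K3 and MAP2K6 are the kinases of p38. MAP2K3 was at 25.7 and 22.1 FPKM under shNC, against 21.1 and 11.8 under shLin28a, so both knockdown libraries lay below both controls. Its log2 fold change was −0.35 ± 0.23 (SE) and did not pass the test, with an edgeR adjusted p of 0.631. MAP2K6 was at 1.84 and 4.37 against 2.80 and 1.74 FPKM, which overlap. MAP2K5, the kinase of ERK5, was at 13.6 and 17.2 against 13.9 and 21.6. Of the 7 genes in the MAP2K tier, 4 log2 fold changes were positive, with a median of 0.36 that was −0.12 without knockdown 2.

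MAPK3 (ERK1, chromosome 3, 18291444 to 18299410), the terminal kinase of the RAS pathway, was at 38.8 and 60.7 FPKM under shNC, against 52.5 and 150 under shLin28a. Knockdown 1 lay between the controls, and knockdown 2 was well above every other library. The log2 fold change was 1.35 ± 0.66 (SE), with an edgeR adjusted p of 0.606. It was 0.06 without knockdown 2 and 2.03 without knockdown 1. With the replicate block it was 1.10, with an edgeR adjusted p of 0.0028. Each knockdown library exceeded the control of the same number.

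MAPK8 and MAPK9 varied little. MAPK9 (JNK2) was at 26.4 and 25.02 FPKM under shNC, against 25.5 and 23.8 under shLin28a, and MAPK8 (JNK1) at 14.2 and 12.5 against 13.0 and 13.2. MAPK10 (JNK3), best known from neurons, ranged 2.03-fold, from 1.25 FPKM in knockdown 2 to 2.54 in control 2. MAPK9 made up 62.2% to 62.9% of the summed FPKM of the 3 genes in every library. The log2 fold changes of MAPK8 and MAPK9 were 0.21 ± 0.24 and 0.17 ± 0.22 (SE).

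For the p38 kinases, the widely expressed MAPK14 (p38 alpha) was at 22.8 and 19.5 against 20.2 and 15.5 FPKM, with a log2 fold change of −0.03 ± 0.20 (SE). MAPK12 (p38 gamma) was highest in knockdown 1 at 16.6 FPKM and lowest in knockdown 2 at 5.62, with 11.2 and 12.3 in the controls. MAPK11 (p38 beta) was at 2.41 and 1.33 FPKM under shNC, against 4.24 and 2.07 under shLin28a. MAPK11 and MAPK12 lie next to each other on chromosome 5, at 420848 to 428103 and 429635 to 437970, and both were highest in knockdown 1. On the TMM scale both knockdown libraries of MAPK11 lay above both controls, with a log2 fold change of 0.92 ± 0.42 (SE) and an edgeR adjusted p of 0.606. MAPK13 (p38 delta) had 1 to 4 counts in any library and was not tested. MAPK14 was 62.5% and 58.0% of the summed p38 FPKM under shNC, against 48.7% and 64.0% under shLin28a.

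MAPK7 (ERK5) was at 33.4 and 24.9 against 40.0 and 20.1 FPKM, with the knockdown libraries at both extremes. The atypical kinase MAPK6 (ERK3), which lacks the usual activation motif, was among the most abundant transcripts of the cascade, at 71.4 and 84.7 FPKM under shNC, against 78.5 and 91.0 under shLin28a. These groups overlap, and the log2 fold change of 0.37 ± 0.32 (SE) was −0.01 without knockdown 2.

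Its relative MAPK4 (ERK4, chromosome 1, 100107429 to 100291594) had the smallest p of all 48 tested genes. MAPK4 was at 7.54 and 7.53 FPKM under shNC, against 5.02 and 2.77 under shLin28a. The controls were nearly equal and both knockdown libraries were lower. In CPM it was at 35.5 (exact Poisson 95% interval 32.1 to 39.0) and 35.2 (31.0 to 39.9) in the controls, and at 23.6 (20.3 to 27.2) and 13.7 (9.46 to 19.3) in the knockdown. The log2 fold change was −0.71 ± 0.22 (SE), with an unadjusted edgeR p of 0.021 and an adjusted p of 0.553. Over the alternatives it was negative throughout, at −0.59 without knockdown 2 and −0.93 without knockdown 1. MAPK15 (ERK7) had 1 to 3 counts in any library and was not tested. Of the 10 tested genes of the MAPK tier, 7 log2 fold changes were positive, with a median of 0.19 that was −0.03 with total counts. That scaling gave all tested genes a median of −0.18.

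**Figure D2:**
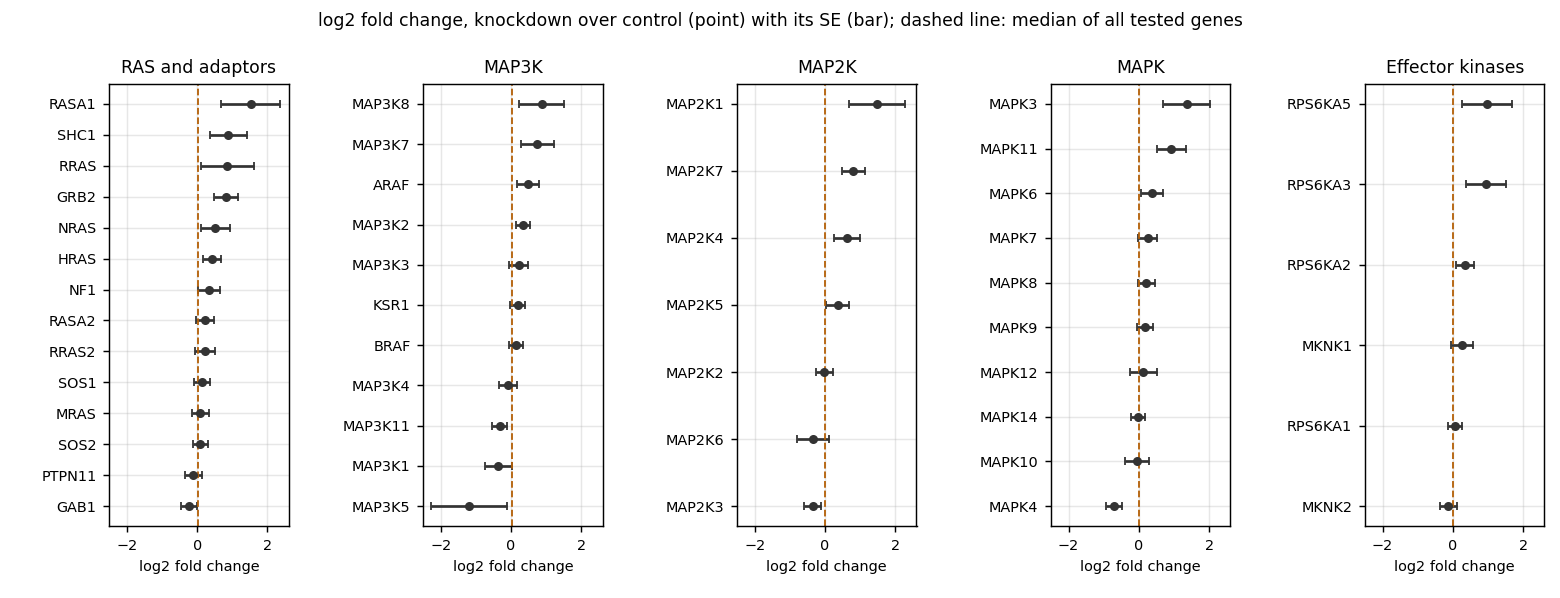
log2 fold change of knockdown over control for the 48 tested genes (points, with the SE as bars), a panel for each tier; the dashed line marks the median of all tested genes, 0.01. RASA1, MAP2K1 and MAPK3 have the largest positive values and wide bars, while MAPK4 at −0.71 has a narrow one.

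Effector kinases carry the signal from ERK and p38 to transcription and translation. Among the ribosomal S6 kinases that ERK activates, RPS6KA3 (RSK2) was at 12.3 and 17.1 FPKM under shNC, against 13.6 and 31.9 under shLin28a, with knockdown 1 between the controls. Its log2 fold change was 0.95 ± 0.57 (SE) with an edgeR adjusted p of 0.614, and −0.12 without knockdown 2. RPS6KA2 (RSK3) was instead highest in knockdown 1, at 19.8 FPKM, and lowest in knockdown 2, at 10.5, with 14.7 and 12.5 in the controls. RPS6KA1 (RSK1) stayed at 6.57 to 8.40 FPKM. RPS6KA3 thus made up 34.8% and 45.6% of the summed FPKM of RPS6KA1, RPS6KA2 and RPS6KA3 under shNC, against 32.7% and 65.2% under shLin28a.

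RPS6KA5 (MSK1), which phosphorylates CREB and histone H3, was at 0.30 and 0.18 FPKM under shNC, against 0.37 and 0.58 under shLin28a. Both knockdown libraries were higher, but these values rest on 16 and 4 counts against 12 and 5, and the counting intervals overlap. Its log2 fold change was 0.98 ± 0.71 (SE), with an edgeR adjusted p of 0.647. MKNK2, a kinase of the translation factor eIF4E, was at 29.7 and 23.1 FPKM under shNC, against 27.1 and 15.1 under shLin28a. The groups of MKNK2 overlap, and its log2 fold change was −0.13 ± 0.25 (SE). MKNK1 was at 4.47 to 5.33. In this tier 5 of 6 log2 fold changes were positive, with a median of 0.29 that was 0.01 without knockdown 2.

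**Figure D3:**
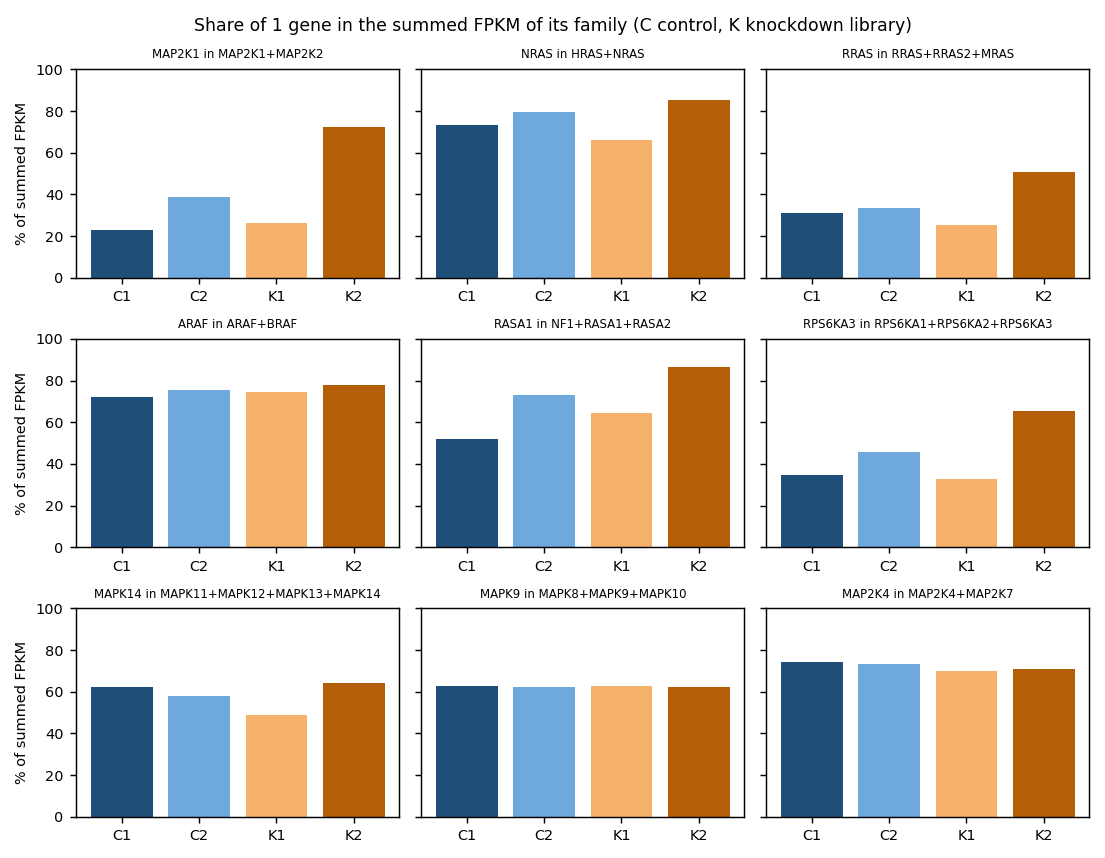
Share of a gene in the summed FPKM of its family (percent, bars from 0) in control 1 and 2 (C1, C2) and knockdown 1 and 2 (K1, K2). MAP2K1, RASA1 and RPS6KA3 take their largest share in knockdown 2 and their next largest in control 2, whereas MAPK9 keeps 62.2% to 62.9% of the JNK family.

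By arm, genes assigned to several arms were counted in each, but MAP2K4, which acts on JNK and p38, was counted under JNK alone. Its log2 fold change was 0.62, so the p38 count and median below leave out a positive value. Log2 fold changes were positive in 23 of 27 tested genes of the RAS and ERK arm, with a median of 0.34. Without knockdown 2 that arm had a median of −0.02. For the JNK arm the numbers were 5 of 10 and a median of 0.06, which was −0.15 with total counts, −0.04 without knockdown 2 and 0.25 without control 2. In the p38 arm 5 of 11 were positive, with a median of −0.03 that was −0.24 with total counts, −0.36 without knockdown 1 and 0.19 without control 2. All 4 genes of the ERK5 arm were positive, with a median of 0.29 that was 0.07 without knockdown 2. The median of all tested genes moved as well. It was −0.18 with total counts, −0.09 without knockdown 1, −0.02 without knockdown 2 and 0.00 without control 2. Relative to the control mean, the ERK arm had a median of 0.02 in knockdown 1 and 0.55 in knockdown 2, and the p38 arm −0.05 and −0.35. The difference between arms was not tested, since the genes of an arm are not replicates.

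The knockdown libraries, in both of which LIN28A was low, differed from the controls to unequal degrees. They were more than 1 apart on the log2 scale for 9 of 48 genes (18.8%), close to the 16.7% of all tested genes. In knockdown 1, 33 of 48 genes (68.8%) lay within 0.2 of the control mean on the log2 scale, where 50.9% of all tested genes did. Knockdown 2 lay over 0.5 from the control mean for 27 of 48 genes (56.2%), against 45.4% of all genes. The median size of the difference from the control mean was 0.09 in knockdown 1 and 0.54 in knockdown 2 for the cascade, and 0.20 and 0.45 for all tested genes, which were not matched on level. Knockdown 2 was the highest library for 27 of the 48 genes in TMM-scaled counts (34% of all genes) and for 21 in FPKM (20.8% of all genes). It was the lowest for 10 (42.2% of all genes) and 22 (64.1% of all genes) on these scales.

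From library 1 to 2, the controls differed in the same direction as the knockdown libraries for most cascade genes. Most of all tested genes did so too, at a similar share. On the TMM scale 19 of 48 genes (39.6%) were higher in control 2 than in control 1 and also higher in knockdown 2 than in knockdown 1, against 29.6% of all tested genes. RASA1 was 1.26 and 2.33 higher in these comparisons (log2), MAP2K1 0.89 and 2.40, MAPK3 0.69 and 1.94, RPS6KA3 0.52 and 1.65, and SHC1 0.37 and 1.58. For each of these 5 genes, picked after their values were seen, knockdown 1 lay within 0.2 of the control mean. Of the 19 genes, RRAS (−0.58), GRB2 (0.28) and MAP2K7 (0.35) lay further from it in knockdown 1. RRAS was 0.28 higher in control 2 than in control 1 and 2.27 higher in knockdown 2 than in knockdown 1. The order control 1, knockdown 1, control 2, knockdown 2 from lowest to highest held for 15 of 48 genes on that scale (11.4% of all genes) and for 10 in FPKM (8.87% of all genes). In FPKM it was also the order of 8 of 21 fibroblast markers, COL1A2, COL3A1, FN1 and TWIST2 among them, and of 3 of 7 blood markers (CD34, RUNX1 and SPI1). Knockdown 2 was the highest library for 15 of the 21 fibroblast markers and 6 of the 7 blood markers, with the defining blood marker PTPRC at 0 to 0.08 FPKM, and the part of either list in the result was not tested. A further 14 genes, MAP2K2, MAP2K3, PTPN11, HRAS and MKNK2 among them, were lower in both second libraries (29.2%, against 35.6% of all genes).

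**Figure D4:**
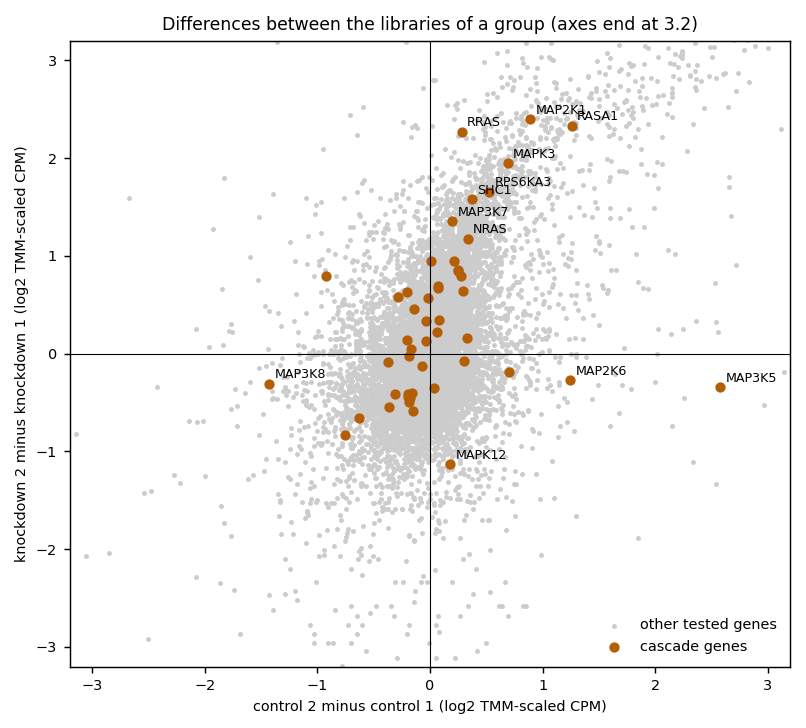
Difference between the 2 controls (horizontal) and between the 2 knockdown libraries (vertical) in log2 TMM-scaled CPM, for the 48 tested cascade genes (orange) and the other tested genes (grey). MAP2K1, RASA1, RRAS and MAPK3 lie highest, from 1.94 to 2.40 on the vertical axis, and MAPK12 lies lowest at −1.13.

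Other genes of the pathway were counted from lists, 135 of whose 138 genes are in the table and 113 were tested. edgeR called 0 in either direction, and DESeq2 called 2 of 113, DUSP8 and DUSP6, where it called 1.16% of all tested genes. Log2 fold changes were positive in 10 of 15 other MAP3K and MAP4K kinases, in 7 of 9 other RAS exchange factors and GTPase activators, in 17 of 27 scaffolds and regulators, and in 4 of 5 other downstream kinases. Their medians were 0.23, 0.35, 0.08 and 0.44. Receptor tyrosine kinases split 8 to 8, with a median of −0.01. Phosphatases of MAP kinases were positive in 12 of 13 (median 0.50), and transcription factors that the kinases act on in 25 of 28 (median 0.69). The title of the series names DUSP phosphatases, and the lists were drawn up with earlier results known, so these directions are not independent evidence.

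The genes named below have the smallest p of their lists, a choice that favours groups lying apart. Some of them had both knockdown libraries apart from the controls, as 39.2% of all tested genes had in FPKM. MAP3K12, a neuronal kinase upstream of JNK, was at 7.68 and 7.65 FPKM against 11.3 and 10.7, a log2 fold change of 0.74 ± 0.21 (SE), and MAP3K10, a mixed lineage kinase, was at 4.93 and 4.78 against 6.80 and 9.30. For both, each knockdown library exceeded each control by more than the controls differed. SHC2, an adaptor related to SHC1, was at 1.28 and 1.24 against 6.39 and 2.28 FPKM, and MAPK8IP2, a scaffold of the JNK cascade, at 0.11 and 0.27 against 0.91 and 0.53. Both were highest in knockdown 1, in which the neural marker list was also highest, at 601 FPKM summed over 14 genes against 254 to 347 in the other libraries, with SOX1 at 0 in all; the part of those cells was not tested. ERBB3, a receptor of neuregulin, was at 0.92 and 0.75 against 0.28 and 0.08 FPKM, and ERBB4 at 0.17 and 0.15 against 0.49 and 0.37. MAPK8IP2, ERBB3 and ERBB4 were thus low, at no more than 0.92 FPKM in any library. The epithelial and trophectoderm list summed to 71.2 and 102 FPKM over 11 genes in the controls and to 59.4 and 54.9 in the knockdown, and its part was not tested. Its members did not go 1 way: KRT8 was at 14.5 and 38.9 against 1.11 and 1.85, while TFAP2A was at 24.8 and 27.7 against 38.1 and 40.2 and GATA2 at 0.07 and 0.29 against 0.32 and 0.86.

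DUSP8, a phosphatase of JNK and p38, was at 0.91 and 0.69 against 4.13 and 2.54 FPKM, and DUSP6, a phosphatase of ERK, at 68.0 and 58.7 against 147 and 96.3. MYC, a transcription factor stabilised by ERK, was at 5.64 and 3.02 against 15.4 and 7.34, and JUND at 28.4 and 20.1 against 42.8 and 30.0. All 4 were higher in knockdown 1 than in knockdown 2 in FPKM, unlike RASA1, MAP2K1, MAPK3, MAP3K7 and RPS6KA3. On that scale knockdown 2 was the lowest library for 64.1% of all tested genes, and the genes set against them were picked with their values known. The remaining genes with the smallest p of their lists were RASAL2 (0.34) of the GTPase activators and MAPKAPK5 (0.77) and RPS6KA6 (−0.33) of the downstream kinases, given as log2 fold changes. The edgeR adjusted p of the 13 genes named from these lists lay between 0.241 and 0.631.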

How the data were processed

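Polyadenylated RNA of 4 libraries was sequenced on the BGISEQ-500, per the labels' protocols. The submitters' processing notes name Bowtie2, RSEM 1.2.12 and the build Sscrofa11.1. The deposited expected counts are not normalised. The other deposited columns hold FPKM; the header gives no unit, which was inferred from 6 genes taken to have a single exon, whose length exceeded the length implied by their values by 134 to 144 bases in every library. Positions are those of RefSeq on this build, to which all 16026 identifiers matched.

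Expected counts were rounded and tested with edgeR 4.0.16 (R 4.3.3): filterByExpr, TMM factors of 1.10, 1.07, 1.07 and 0.798 in control 1, control 2, knockdown 1 and knockdown 2, and the quasi-likelihood test without covariates, with 2 residual degrees of freedom and Benjamini-Hochberg adjustment over 11967 genes. Calls used an adjusted p under 0.05. The SE is the log2 fold change over the square root of its F statistic. A count of 3, the floor for a gene at 0, is 0.253 to 1.25 CPM. Alternatives were other scalings, DESeq2 1.42.0, no filter, limma 3.58.1 on FPKM, a replicate block and leaving out each library.

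The genes and lists were chosen with earlier results of these data known. Values per library are given for LIN28A, for genes past the test, for genes whose groups do not overlap in FPKM with a log2 fold change of at least 0.5 in size, and for the 2 most abundant genes of each tier. Of each other pathway list, the 2 genes with the smallest p are named, except 1 that is not reported here. Genes given beyond this rule complete the account of the 51 and were chosen after their values were seen. Of the marker lists, endoderm summed to 92.4 and 112.5 FPKM over 6 genes under shNC and 31.4 and 37.4 under shLin28a, and blood to 3.10 and 8.80 over 7 genes against 6.17 and 30.1, with PTPRC at 0 to 0.08. Of the endoderm genes, APOA1 was at 56.9 and 71.5 under shNC against 18.4 and 23.1, and COL4A1 and COL4A2 were also lower. FOXA1 overlapped, at 9.07 and 7.06 against 8.12 and 4.54. GATA4 and GATA6 did not exceed 0.72 in any library.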

Additional observations from a re-analysis of the deposited data

How the results depend on the processing

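No cascade gene was called with any other scaling, with DESeq2, without the filter, with limma on FPKM, or without control 1, control 2 or knockdown 2. Without knockdown 1, edgeR called 9 of 48, all higher (GRB2, MAP2K1, MAP2K4, MAP2K7, MAP3K7, MAPK3, RPS6KA3, RRAS and SHC1), among 1204 genes, or 9.88% of those tested; the lone library of that fit is assumed to vary like the controls, and the cause was not tested. Over the leave-one-out fits the cascade calls ran from 0 to 9, those over all genes from 0 to 1204 (11 without knockdown 2), those of the other pathway genes from 0 to 21, and the cascade median from −0.037 to 0.37, with 20 to 38 positive log2 fold changes. Leaving out a library moved the log2 fold change of LIN28A from −3.28 to −2.41. All genes called numbered 8 with total counts, 139 with DESeq2, 40 without the filter and 2 with limma on log2(FPKM + 1), where edgeR with TMM called 0. DESeq2 called 2 other pathway genes and LIN28A (−2.91, adjusted p 0.00855).

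The cascade median of 0.23 was −0.0071 with total counts and 0.0058 and 0.0073 with limma at pseudocounts of 1 and 0.1. The median of all tested genes moved too, to −0.18, −0.19 and −0.22 in these settings. The cascade median thus lay above that of all genes by 0.17, 0.20 and 0.22, against 0.22 by edgeR with TMM. Leaving out a library in turn, log2 fold changes ran from −0.091 to 2.31 for RASA1, −0.099 to 1.28 for MAP3K7, −0.17 to 2.25 for MAP2K1, −0.0064 to 0.65 for MAPK6 and −0.12 to 1.56 for RPS6KA3, negative in each case without knockdown 2. They ran from −0.27 to 0.16 for MAP2K2 and −0.36 to 0.031 for MKNK2, positive without knockdown 2 and without control 1; these causes were not tested. MAP2K2 also changed sign with DESeq2 size factors (0.00057) and the DESeq2 test (0.0030).

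With the replicate block, 5 of 48 cascade genes (10.4%) were called higher (GRB2, MAP2K1, MAP2K7, MAPK3 and RASA1) and 0 lower. Of all tested genes, 1032 (8.62%) were called higher and 306 (2.56%) lower, which is 1338 or 11.2% in either direction. That fit also called 31 of the 113 other pathway genes in either direction, and LIN28A lower (−3.08, edgeR adjusted p 4.3e-09). The replicate numbers follow accession order, which matches the last digit of the sample titles. Whether that digit marks a shared culture or batch is not stated in the labels. Deviations of same-numbered libraries correlated at 0.56 across genes. Depth limits KSR2, MAPK13, MAPK15, RPS6KA5, MAP3K5 and MAP3K8, and knockdown 2 most.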
